A study of Homo sapiens with 2 samples.

Results

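The genes described here are 42 chaperone genes, chosen by name and matched by their Entrez identifiers in the deposited files. They comprise 17 genes of the heat shock system of cytosol and nucleus, 21 genes of the endoplasmic reticulum (ER) and 4 chaperone genes of mitochondria, out of 27685 annotated genes. The cells were PLC/PRF/5, an established line of human hepatocellular carcinoma, kept for 24 h with the solvent DMSO or with JIB-04 at 6 µM, an inhibitor of Jumonji histone demethylases, and 1 RNA library was sequenced per condition. One label calls the control untreated while its title names DMSO, and it was taken as the DMSO control. Both groups are the same cell line without any other labelled alteration, and neither label tells how many cultures a library came from. The comparison asks how the chaperone transcripts of these cells stood with JIB-04 relative to DMSO. It has no replicate check, so treatment and library cannot be told apart, and no test or p-value is given.

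Molecular chaperones bind unfolded or partly folded proteins and help them to reach or keep their native shape. HSP70 proteins work in cycles of ATP hydrolysis with J-domain partners and nucleotide exchange factors, HSP90 takes over many signalling proteins at a late stage of folding, and the ring-shaped chaperonins enclose their substrates. The cytosolic set is controlled by heat shock factors, whereas the ER set is controlled by the unfolded protein response, whose sensors include IRE1 (ERN1) and ATF6. Liver cells secrete large amounts of plasma protein and depend heavily on the ER chaperones and disulfide enzymes.

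Levels are given in TPM, the share of a transcript among all transcripts after correction for its length, scaled to the same total in each library and summed over the transcripts of a gene. Ratios are on a log2 scale, after a pseudocount of 1 TPM was added in each library, with JIB-04 in the numerator. They were described for the 14450 genes with at least 1 TPM in either library, which include all 42 chaperone genes. The median log2 ratio of the 14450 genes was -0.15, so that a ratio of 0 marks a place in the upper part of the distribution. A 2-fold threshold was used for calls, which 865 of the 14450 genes passed upward (5.99%) and 994 downward (6.88%). This balance turned with the scaling, to 1108 higher and 679 lower after scaling to the median of genes with at least 10 TPM in both libraries, and to 1006 and 758 after quantile normalization. The DMSO library held an estimated 28187793 fragments and the JIB-04 library 23721989, and single chaperone genes held 916 to 63297 fragments with DMSO and 399 to 53585 with JIB-04. Intervals are 95% exact conditional binomial intervals from these fragments and cover counting error only. Of the hepatocyte and hepatoma markers, 11 of 11 were at 1 TPM or more with DMSO and 10 of 11 with JIB-04. Their summed level was 9454 and 5988 TPM. The keratin genes KRT18 (4484 and 2214 TPM) and KRT8 (3212 and 1912 TPM) held most of that sum and were lower with JIB-04. APOB (103 and 32.9 TPM), SERPINA1 (284 and 209 TPM), ALB (9.74 and 4.53 TPM) and APOA1 were lower too. AFP, FGB, TF and TTR were higher with JIB-04, and HNF4A was nearly level (71.9 and 72.3 TPM). ALB, APOA1 and TTR stayed below 10 TPM in both libraries, at lower levels than the leukocyte genes CD68 and LYZ. Of 5 leukocyte genes CD68 and LYZ were detected at 1 TPM or more and PTPRC was listed at 0 in both libraries. None of 4 endothelial genes reached 1 TPM, and 3 of 5 fibroblast genes did so with DMSO and 2 of 5 with JIB-04. In RNA from whole cultures, fewer cells of a kind and less RNA per cell cannot be told apart.

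Promoter sequences that differ between the compartments are shown first. Promoters, taken from RefSeq on GRCh38.p14 as 250 bases before to 50 bases after the annotated start, were found for 40 of the 42 genes and the table gave none for HSF1 and PDIA3. These 40 genes had 55 such windows, and a gene was counted when any of its windows held the motif. The shares of all promoters given beside these counts are shares of single windows, not of genes, so the measures differ. A site can lie in several overlapping windows of a gene, as the ER stress element of CANX does. Heat shock elements are runs of the unit GAA and its inverse TTC, each separated by 2 bases. A pair of such units, GAANNTTC or TTCNNGAA, is the same on both strands and stood in 13.5% of 35116 promoters. It was found in 10 of 16 cytosolic genes, in 1 of 20 ER genes (CANX) and in 2 of 4 mitochondrial genes (HSPA9 and HSPD1). Runs of 3 alternating units, which are counted among the pairs too, stood in 0.490% of promoters. They were found in 4 of 16 cytosolic genes and in HSPD1, and in 0 of 20 ER genes. HSPA8 and HSP90AB1 each held a second run of 3 units, which is not shown. In HSPD1 a further TTC, left in small letters 2 bases before the first GAA, continues the run. Those 5 windows, on the strand of the gene and with 3 units in capitals, show the element bound by the heat shock factors.
HSPA8 (chr11:123062171-123062199, minus strand): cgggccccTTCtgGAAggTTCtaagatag
HSP90AA1 (chr14:102087112-102087140, minus strand): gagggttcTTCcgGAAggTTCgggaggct
HSP90AB1 (chr6:44247823-44247851, plus strand): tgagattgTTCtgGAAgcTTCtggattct
DNAJA1 (chr9:33025268-33025296, plus strand): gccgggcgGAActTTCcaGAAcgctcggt
HSPD1 (chr2:197500060-197500088, minus strand): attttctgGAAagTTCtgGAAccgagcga

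The ER stress element, CCAAT and CCACG separated by any 9 bases, was searched on both strands and stood in 27 of the 35116 promoters (0.0769%). It was found in 7 of 20 ER genes, namely CALR, CANX, CRELD2, HSP90B1, HSPA5, PDIA6 and XBP1, and in 0 of 16 cytosolic and 0 of 4 mitochondrial genes. The windows of 6 of them are given with CCAAT and CCACG, or their complements ATTGG and CGTGG, in capitals, since this arrangement is known from targets of ATF6.
HSPA5 (chr9:125241383-125241417, minus strand): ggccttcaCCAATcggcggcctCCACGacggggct
HSP90B1 (chr12:103930208-103930242, plus strand): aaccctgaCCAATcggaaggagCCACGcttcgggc
CALR (chr19:12938376-12938410, plus strand): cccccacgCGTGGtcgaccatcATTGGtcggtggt
PDIA6 (chr2:10812845-10812879, minus strand): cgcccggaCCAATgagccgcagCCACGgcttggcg
CRELD2 (chr22:49918546-49918580, plus strand): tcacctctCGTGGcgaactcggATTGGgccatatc
XBP1 (chr22:28800595-28800629, minus strand): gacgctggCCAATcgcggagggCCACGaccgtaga

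The letters ACGTG, the core bound by hypoxia-inducible factors, were searched on both strands and stood in 21.4% of promoters, in 10 of 20 ER genes, in 3 of 16 cytosolic genes and in 3 of 4 mitochondrial genes. In the ER the genes with the core had a median log2 ratio of 0.15 and those without it -0.0026, in the cytosol -0.49 and -0.27. In mitochondria HSPA9, HSPD1 and HSPE1 held it and TRAP1 did not. The matches of HSPD1 and HSPE1 lie on the same bases, read on opposite strands, and were counted for each gene. No ER stress element found in these genes overlapped the core, since CCACG was followed by T in none of them. The match in ERO1A, the member with the highest ratio, is shown with the core in capitals, here as its complement.
ERO1A (chr14:52695660-52695680, minus strand): cgccgcggCACGTccacaggc
All of these are matches of letters in a short window and do not show that a factor was bound in these cells.

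Across the 42 genes the compartments differed in their central ratio. The ER genes had a median log2 ratio of 0.16, the cytosolic genes one of -0.33 and the mitochondrial genes one of -0.66. The ER median lay 0.49 above the cytosolic and 0.83 above the mitochondrial median. Of the 21 ER genes 14 stood above the median of all genes, whereas 12 of the 17 cytosolic and 3 of the 4 mitochondrial genes stood below it. The ranges overlapped, from -1.26 to 2.46 in the ER, from -1.31 to 0.44 in the cytosol and from -0.82 to 0.12 in mitochondria. With 1 library per condition these differences between compartments are a description.

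Few of the 42 genes passed 2-fold. ERO1A alone was higher, beside 5.99% of all genes, and HSPH1 and SDF2L1 were lower, beside 6.88%. At 1.5-fold, 4 of the 42 were higher and 11 lower, beside 12.8% and 21.0% of all genes. The members were thus called at 2-fold no more often than other genes. The counting interval lay above 0 in 16 of the 42 genes, beside 27.7% of all genes, and below 0 in 25, beside 46.2%, and these genes are deeper than most. Only DNAJB1 among the 42 had an interval that held 0. The 42 genes together took 1.92% of the TPM under DMSO and 1.81% with JIB-04.

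**Figure D1:**
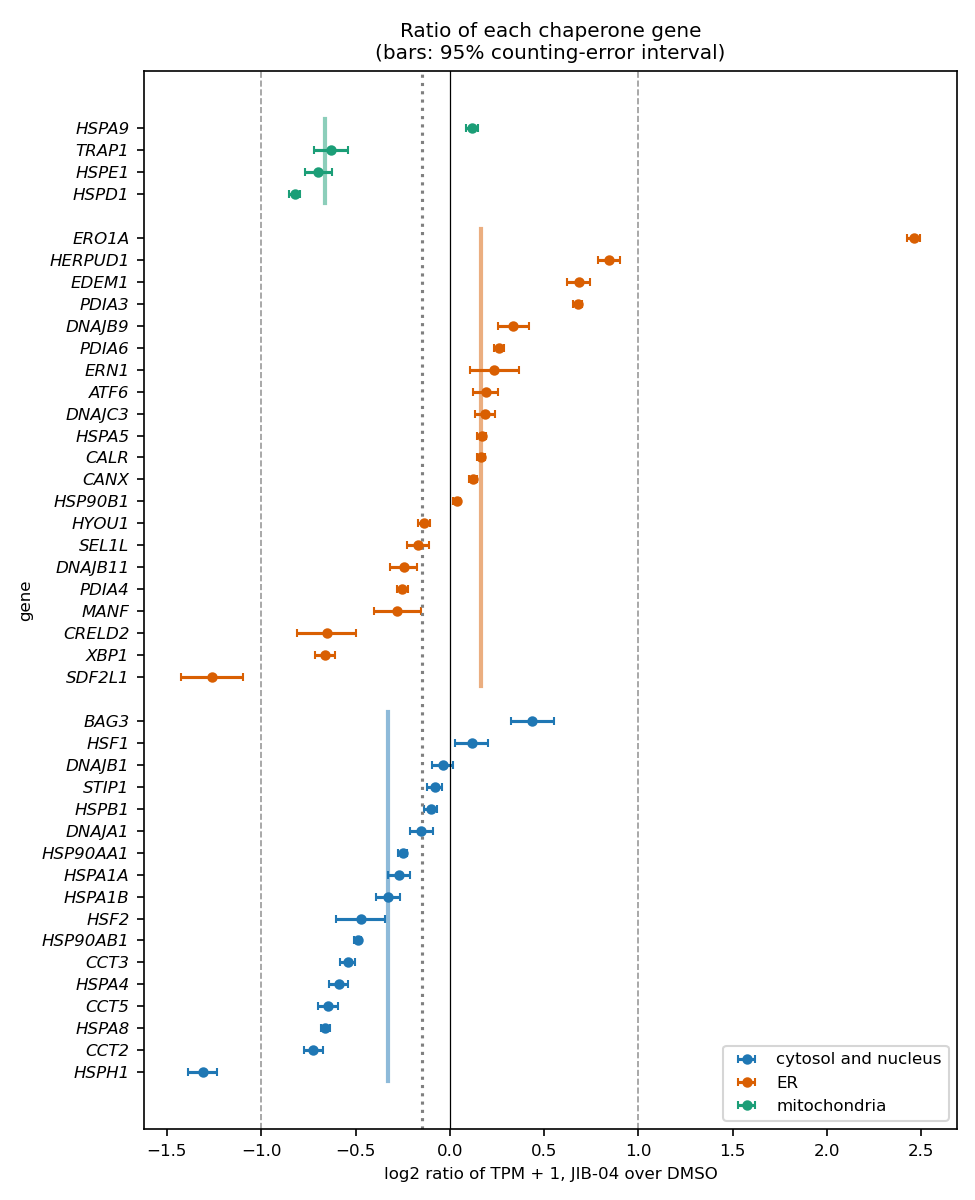
Log2 ratio of TPM + 1 with JIB-04 over DMSO (horizontal axis) for each of the 42 chaperone genes (vertical axis), with 1 library per condition. Bars are 95% counting-error intervals, thick vertical lines the compartment medians (-0.33, 0.16 and -0.66), the dotted line the median of all genes (-0.15) and dashed lines 2-fold. ERO1A stands far right of all other members at 2.46, and 15 of 17 cytosolic genes lie left of 0, beside 8711 of all 14450 genes. Of these 15, DNAJA1, DNAJB1, HSPB1 and STIP1 move right of 0 after scaling to the median of well expressed genes.

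Among the cytosolic genes, 15 of 17 were lower with JIB-04, beside 8711 of all 14450 genes described. The summed level of the 17 went from 8324 to 6413 TPM, or from 0.832% to 0.641% of all transcripts. Of these 15 genes DNAJA1, DNAJB1, HSPB1 and STIP1 stood above 0 once the libraries were scaled to the median of well expressed genes. The constitutive HSP70 gene HSPA8, which folds newly made proteins and uncoats clathrin vesicles, was at 1502 TPM under DMSO and 950.0 TPM under JIB-04 (log2 ratio -0.66, interval -0.68 to -0.64). The stress-inducible HSP70 genes HSPA1A and HSPA1B were at 204 and 169 TPM under DMSO and at 169 and 134 TPM under JIB-04. Their ratios were -0.27 and -0.33, and HSPA1B was itself the median gene of the cytosolic set. The transcripts of HSPA1A and HSPA1B share 69.8% and 72.7% of their 101-base windows, so the split between the pair is uncertain.

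The largest difference in the cytosol was found in HSPH1 (chromosome 13 of hg19, 31709111 to 31736525), an HSP110 protein that serves as nucleotide exchange factor of HSP70. It was at 83.4 TPM under DMSO and 33.0 TPM under JIB-04 (log2 ratio -1.31, interval -1.39 to -1.23), at percentile 2.56 of the described genes. HSPA4, a second HSP110 gene, was at 207 and 137 TPM (log2 ratio -0.59, interval -0.64 to -0.54). Both HSP110 genes were therefore below the median of all genes.

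The J-domain genes that feed substrates to HSP70 differed less. DNAJA1 was at 169 TPM under DMSO and 152 TPM under JIB-04 (log2 ratio -0.15). DNAJB1 was at 193 and 188 TPM, and its interval of -0.09 to 0.02 held 0. BAG3, an exchange factor that routes clients to autophagy, was the highest cytosolic gene, at 37.3 TPM under DMSO and 50.8 TPM under JIB-04 (log2 ratio 0.44, interval 0.32 to 0.55). These 3 partners of HSP70 stood above HSPA8 and both HSP110 genes in their ratios.

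Of the HSP90 genes, the constitutive HSP90AB1 was at 1623 TPM under DMSO and 1156 TPM under JIB-04 (log2 ratio -0.49, interval -0.51 to -0.47). The inducible HSP90AA1 was at 971 and 817 TPM (log2 ratio -0.25, interval -0.27 to -0.23). The intervals of the pair did not overlap. STIP1, the adaptor that joins HSP70 to HSP90, was at 419 and 397 TPM (log2 ratio -0.08), and the small heat shock gene HSPB1, which holds unfolded proteins in solution, was at 1439 and 1342 TPM (log2 ratio -0.10). STIP1 and HSPB1 were above the median of all genes, although below 0.

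All 3 listed subunits of the chaperonin TRiC, the double ring that folds actin and tubulin, were lower with JIB-04. CCT2 was at 424 and 256 TPM (log2 ratio -0.72). CCT3 was at 571 and 392 TPM (log2 ratio -0.54). CCT5 was at 189.8 and 121 TPM (log2 ratio -0.64). With the 5 other subunits of the ring in a further list (TCP1, CCT4, CCT6A, CCT7 and CCT8), all 8 were below 0 and below the median of all genes, and their summed level went from 3097 to 2037 TPM. CCT6B, a paralog of CCT6A in the same list, was not among these 8 and went the other way at a low level, with 0.487 and 1.18 TPM (log2 ratio 0.55, interval 0.08 to 0.94).

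The transcription factors of the heat shock response had ratios of opposite sign. HSF1, the main activator upon heat, was at 82.0 TPM under DMSO and 88.9 TPM under JIB-04 (log2 ratio 0.12, interval 0.03 to 0.20). HSF2, which acts with HSF1 and in development, was at 40.2 and 28.7 TPM (log2 ratio -0.47, interval -0.60 to -0.34). These factors lie on either side of the cytosolic median, so without them the median of the 15 remaining genes stayed at -0.33 by construction. Within the cytosol, the 10 genes with a pair of heat shock units in the promoter had a median ratio of -0.26 and the 6 without one -0.56, and the 4 genes with 3 units had -0.37.

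**Figure D2:**
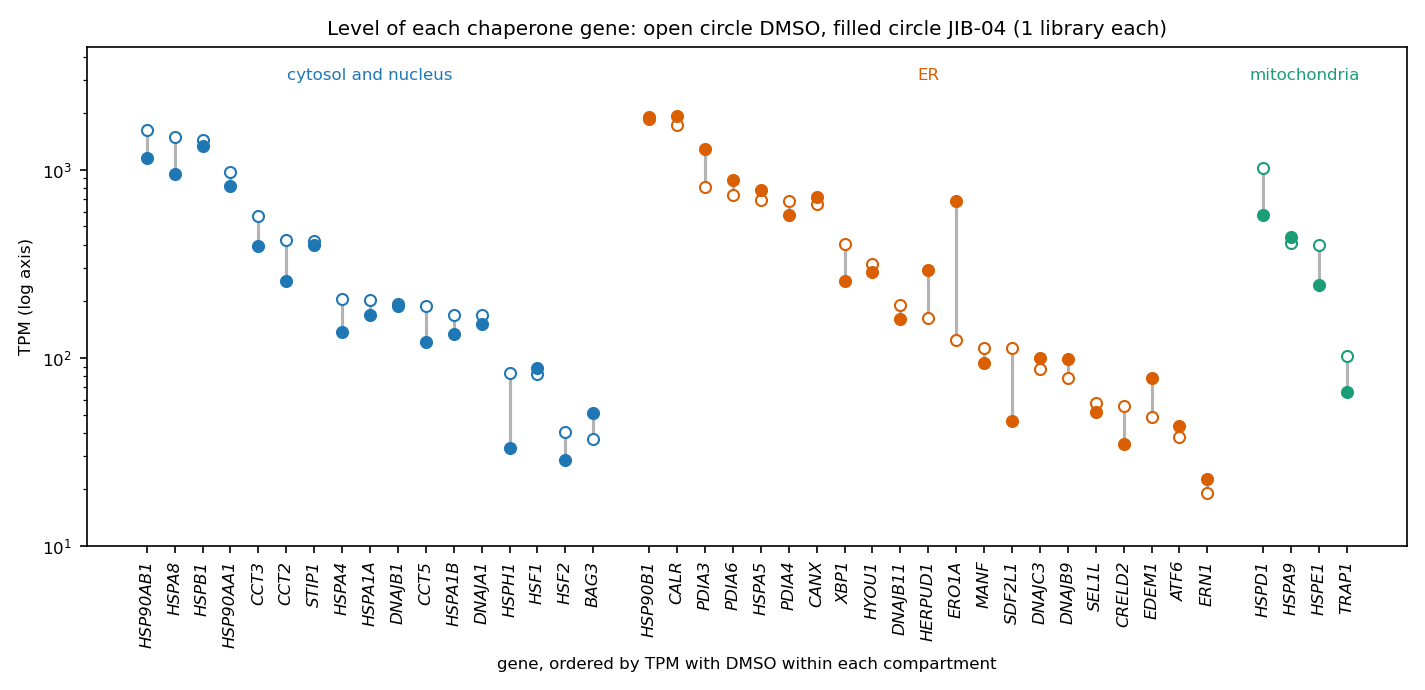
Level in TPM on a log axis (vertical) of each chaperone gene (horizontal axis, ordered within compartments by its level with DMSO), with open circles for the DMSO library and filled circles for the JIB-04 library. ERO1A goes from 124 to 687 TPM, while HSPA8, HSP90AB1 and HSPD1 have their filled circle below the open one.

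In mitochondria 3 of 4 chaperone genes were lower with JIB-04, beside 8711 of all 14450 genes described. The summed level of the 4 went from 1927 to 1328 TPM. HSPD1, which forms the barrel of the mitochondrial chaperonin, was at 1022 TPM under DMSO and 577 TPM under JIB-04 (log2 ratio -0.82, interval -0.85 to -0.79). HSPE1, which encodes the lid of that barrel, was at 396 and 244 TPM (log2 ratio -0.70, interval -0.77 to -0.62). The pair lies head to head on chromosome 2 of hg19 on opposite strands, HSPD1 from 198351308 to 198364998 and HSPE1 from 198364721 to 198368187, and their intervals did not overlap. HSPE1 shares 63.8% of its exonic bases with the readthrough gene HSPE1-MOB4 on the same strand, which was listed at 1.63 and 1.51 TPM.
TRAP1, the HSP90 of mitochondria, was at 102 and 65.7 TPM (log2 ratio -0.63, interval -0.72 to -0.54). HSPA9, the HSP70 of the matrix that also pulls proteins through the import channel, was the exception with 407 TPM under DMSO and 441 TPM under JIB-04 (log2 ratio 0.12, interval 0.09 to 0.15). HSPA9 was thus above 0, in contrast to HSPA8 in the cytosol, and the intervals of both were apart.

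In the ER, 13 of 21 genes were higher with JIB-04 and 8 lower, beside 5739 higher and 8711 lower of all 14450 genes described. The summed level of the 21 went from 8962 to 10325 TPM, or from 0.896% to 1.03% of all transcripts. HYOU1 stood above 0 after scaling to that median, and HSP90B1 below 0 after quantile normalization. ERO1A had a large part in that sum. Without it the 20 other genes went from 8838 to 9638 TPM, with a median log2 ratio of 0.14. ERO1A (chromosome 14 of hg19, 53106633 to 53162649) encodes the oxidase that passes electrons from protein disulfide isomerase to oxygen and is known to be induced by hypoxia. It was at 124 TPM under DMSO and 687 TPM under JIB-04, 5.49 times as high on the scale of TPM + 1 (log2 ratio 2.46, interval 2.42 to 2.49, with 8147 and 37210 fragments). Its ratio stood at percentile 99.5 of the described genes, and no other member came within 1.5 of it on the log2 scale.

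The disulfide isomerases among the members did not share one direction. PDIA3, which acts on glycoproteins held by calreticulin and calnexin, was at 808 TPM under DMSO and 1293 TPM under JIB-04 (log2 ratio 0.68, interval 0.66 to 0.70). PDIA6 was at 735 and 882 TPM (log2 ratio 0.26, interval 0.23 to 0.29). PDIA4 was at 682 and 573 TPM (log2 ratio -0.25, interval -0.28 to -0.22). PDIA3 and PDIA6 were thus higher and PDIA4 lower, with intervals that were apart from each other.

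The main folding chaperones of the ER were close to 0 and above the median of all genes. HSPA5, the ER HSP70 known as BiP and the classical marker of the unfolded protein response, was at 691 TPM under DMSO and 777 TPM under JIB-04 (log2 ratio 0.17, interval 0.15 to 0.19). HSP90B1, the ER HSP90, was at 1858 and 1904 TPM (log2 ratio 0.04, interval 0.02 to 0.05). It was the most abundant of the 42 genes with DMSO and shares 131 bases with the microRNA gene MIR3652, so the assignment of reads in that stretch is uncertain. The lectin chaperone CALR, which retains immature glycoproteins, was at 1724 and 1931 TPM (log2 ratio 0.16, interval 0.14 to 0.18). Its membrane-bound relative CANX was at 657 and 715 TPM (log2 ratio 0.12, interval 0.10 to 0.14). All 4 were higher by less than 1.5-fold.

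The co-chaperones of BiP divided. The J-domain genes DNAJB9 and DNAJC3 were at 77.8 and 87.4 TPM under DMSO and at 98.4 and 99.5 TPM under JIB-04 (log2 ratios 0.34 and 0.19). DNAJB11, a further J-domain gene, was at 191 and 162 TPM (log2 ratio -0.24), with 22.2% of its 101-base windows shared with another gene. HYOU1, the HSP110 and exchange factor of the ER, was at 314 and 285 TPM (log2 ratio -0.14), which is level with the median of all genes. SDF2L1 (chromosome 22 of hg19, 21996542 to 21998588), which forms a complex with DNAJB11 and BiP, was the lowest ER gene. It was at 113 TPM under DMSO and 46.4 TPM under JIB-04 (log2 ratio -1.26, interval -1.43 to -1.10), at percentile 2.99 of the described genes.

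The secreted or lumenal factors MANF and CRELD2, both known as targets of the unfolded protein response, were lower with JIB-04. MANF was at 114 and 93.5 TPM (log2 ratio -0.28, interval -0.40 to -0.16). CRELD2 was at 55.6 and 35.0 TPM (log2 ratio -0.65, interval -0.81 to -0.50). SDF2L1 and CRELD2, which are known to be induced along with HSPA5, were thus lower in a library in which HSPA5 was higher.

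Of the genes for ER-associated degradation, in which misfolded proteins are returned to the cytosol and destroyed, 2 of 3 were higher. HERPUD1, which recruits the ubiquitin ligase complex, was at 163 TPM under DMSO and 294 TPM under JIB-04 (log2 ratio 0.84, interval 0.78 to 0.90), the second highest ratio of the 42. EDEM1, which trims mannose from misfolded glycoproteins, was at 48.3 and 78.1 TPM (log2 ratio 0.68, interval 0.62 to 0.74). SEL1L, the adaptor of the ligase HRD1, was at 57.8 and 51.3 TPM (log2 ratio -0.17). Its counting interval of -0.23 to -0.11 held the median of all genes.

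The sensors of the unfolded protein response were slightly higher and XBP1 was lower. ERN1, the sensor and RNase that splices XBP1, was at 19.2 and 22.8 TPM (log2 ratio 0.24, interval 0.11 to 0.36), the lowest level of the 42 genes in both libraries. ATF6 was at 37.9 and 43.3 TPM (log2 ratio 0.19, interval 0.12 to 0.26). XBP1, the transcription factor made from the spliced message, was at 404 TPM under DMSO and 255 TPM under JIB-04 (log2 ratio -0.66, interval -0.71 to -0.61). The 7 ER genes with an ER stress element in the promoter had a median ratio of 0.12, and the 13 others with a promoter 0.19.

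**Figure D3:**
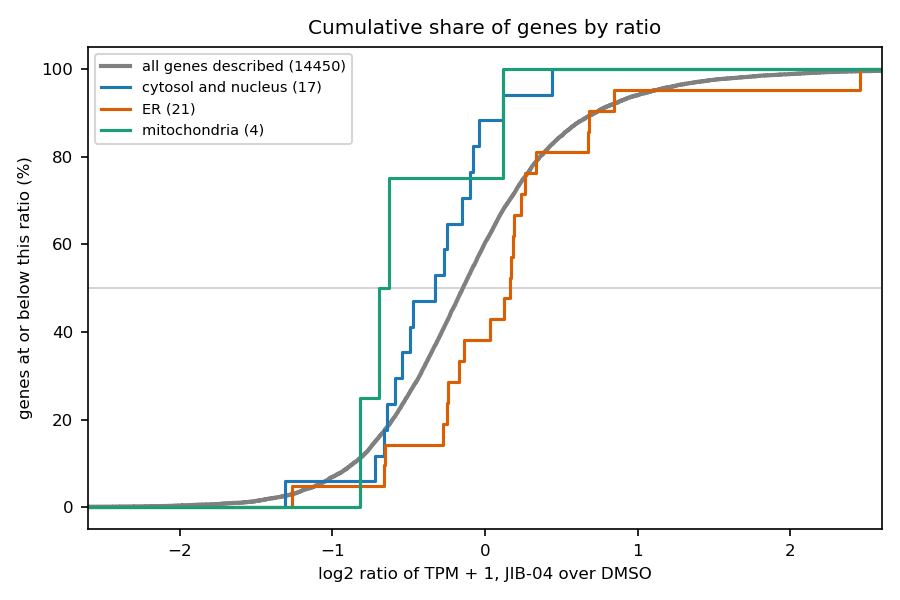
Percentage of genes (vertical axis) at or below each log2 ratio of JIB-04 over DMSO (horizontal axis), as steps for the 17 cytosolic, 21 ER and 4 mitochondrial chaperone genes and as a gray curve for all 14450 genes described. At the 50% line the ER steps cross at 0.16, right of the gray curve at -0.15, and the cytosolic steps at -0.33, left of it.

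Since the deposited values are given per transcript, the isoforms of the members were compared too. The files list 1 transcript for 22 members and several for 20, and in 19 of those 20 the leading transcript was the same in both libraries. The exception was HYOU1, whose leading pair was nearly even (50.6% and 49.4% with DMSO, 48.5% and 51.5% with JIB-04). The share of a transcript moved by over 10 percentage points in 4 members, CANX, HSP90AB1, HSF2 and HSPH1. Such shares are apportioned by StringTie among transcripts that share most of their reads, and they carry no interval here.

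CANX had the clearest shift. Its transcript NM_001024649 was at 214 TPM under DMSO and 66.2 TPM under JIB-04 (log2 ratio -1.68), while NM_001746 was at 443 and 649 TPM (log2 ratio 0.55). The share of NM_001746 went from 67.4% to 90.7%. The pair differs by 53 bases at the first exon (chromosome 5 of hg19, 179126051 to 179126103), which one of them lacks. The moderate ratio of 0.12 for the gene thus joins transcripts of opposite direction.
In HSP90AB1 the transcript NM_007355 was at 868 TPM under DMSO and 471 TPM under JIB-04, and its share went from 53.5% to 40.7%. In HSPH1 the leading NM_006644 was at 60.1 and 20.4 TPM (72.1% and 61.9% of the gene), while NM_001286504 was at 4.50 and 5.17 TPM. In HSF2 NM_004506 was at 17.3 and 8.88 TPM and NM_001135564 at 20.9 and 17.8 TPM. The lower level of these 3 genes was thus not spread evenly over their transcripts. In HERPUD1, by contrast, NM_014685 was at 140 and 242 TPM and NM_001010989 at 18.3 and 47.6 TPM, both higher with JIB-04.

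The isoforms of XBP1 bear on the activity of IRE1, which removes 26 bases from its message and so shifts the reading frame. These bases are on chromosome 22 of hg19 from 29192112 to 29192137, and they are shown in capitals in the annotated unspliced transcript NM_005080, above the junction of the spliced NM_001079539 with the same flanks.
XBP1 unspliced: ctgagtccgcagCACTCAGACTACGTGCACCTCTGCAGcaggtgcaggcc
XBP1 spliced: ctgagtccgcagcaggtgcaggcc
The unspliced transcript was at 286 TPM under DMSO and 179 TPM under JIB-04. The spliced transcript was at 118 and 76.1 TPM. The spliced form was therefore listed at 29.2% of XBP1 with DMSO and 29.9% with JIB-04, a share that hardly moved while the level of the gene was lower. The length of 26 bases is well below that of a read, and the share is StringTie's estimate rather than a count of junction reads.

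**Figure D4:**
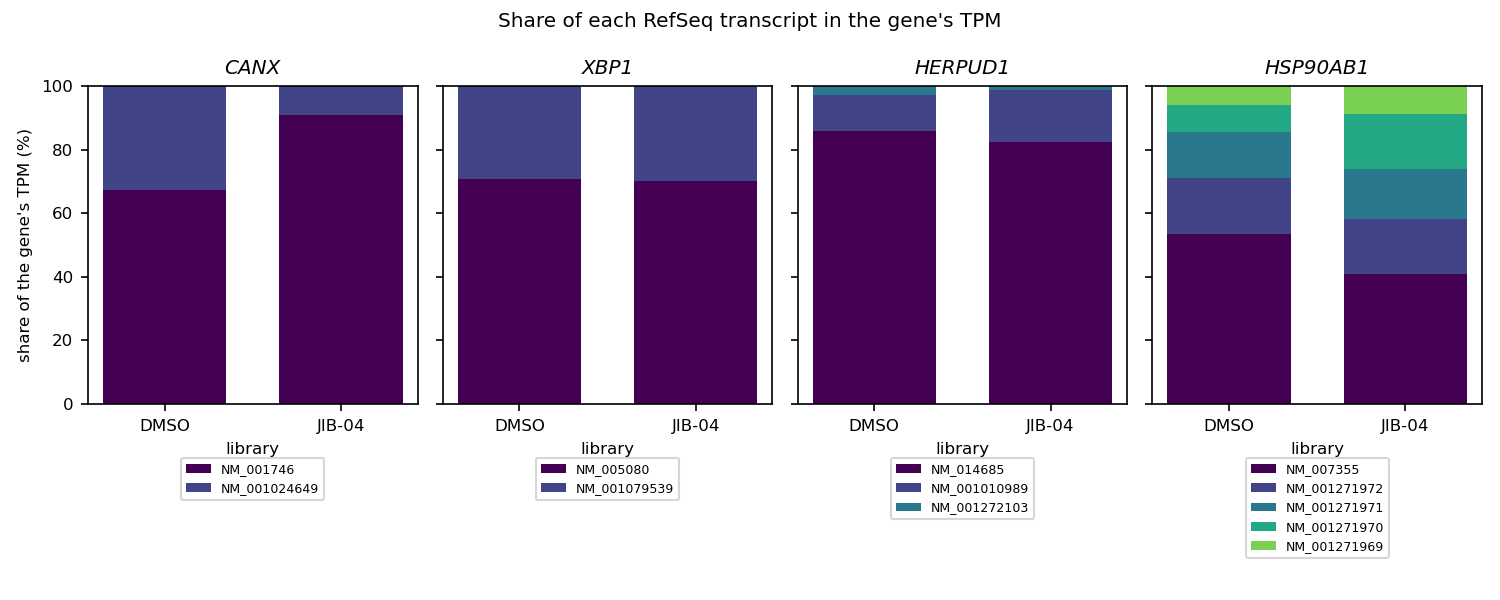
Share of each RefSeq transcript in the TPM of its gene (vertical axis, percent) in the DMSO and JIB-04 libraries for CANX, XBP1, HERPUD1 and HSP90AB1. The leading CANX transcript goes from 67.4% to 90.7% and that of HSP90AB1 from 53.5% to 40.7%, whereas the spliced XBP1 transcript stays near 29.2% to 29.9%.

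Further genes of the same pathways were examined in 8 lists, of which 114 of 122 genes were described. In all, 10 of the 114 stood higher by 2-fold or more, beside 5.99% of all genes, and 5 stood lower, beside 6.88%, and their median log2 ratio was -0.19. By compartment the medians were -0.39 for 42 cytosolic, -0.27 for 14 mitochondrial and -0.03 for 58 ER genes. The ER group takes in the list of stress factors, such as ATF4, DDIT3 and TRIB3, and so is not limited to proteins of the ER. The order of cytosol and ER was that of the members, whereas mitochondria stood between them. Of the 58 ER genes 6 were higher and 2 lower by 2-fold, of the 42 cytosolic genes 2 and 3, and of the 14 mitochondrial genes 2 and 0, counts that are small beside the same 5.99% and 6.88% and from which no difference between compartments is read.

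In the cytosol, a list held other TRiC subunits and those of prefoldin, which hands nascent actin to TRiC. Of its 12 genes 0 were higher and 2 lower by 2-fold, with a median of -0.58. Counts of single lists, here and below, stand beside 5.99% of all genes higher and 6.88% lower. CCT6A was at 434 TPM under DMSO and 203 TPM under JIB-04 (log2 ratio -1.09) and PFDN6 was at 261 and 130 TPM (-1.01). After scaling to the median of well expressed genes these ratios were -0.94 and -0.85, so that 0 of the 12 passed 2-fold, and 1 of them did after quantile normalization. The other end of the list held CCT6B (0.55), PFDN1 (-0.20) and PFDN5 (-0.25), and CCT6B alone was above 0. Of 11 HSP90 co-chaperones 0 were higher and 1 lower, with a median of -0.42. That gene was FKBP5, an immunophilin of steroid receptor complexes and a well-known glucocorticoid target, at 84.2 and 16.9 TPM (log2 ratio -2.25, interval -2.36 to -2.13). The others ranged up to PPID (0.30), with NUDC at -0.88 and FKBP4 at -0.10. Of 16 other HSP70, J-domain and exchange factor genes 1 was higher and 0 lower, with a median of -0.24. It was DNAJB2, at 80.4 and 192 TPM (log2 ratio 1.24). It was followed by HSPA6 (0.76), which was at only 0.585 and 1.69 TPM, and by DNAJB6 (0.44), while BAG2 (-0.83) and the ubiquitin ligase STUB1 (-0.74) were lowest. Of the small heat shock genes 3 of 8 were described. HSPB8, the partner of BAG3 in selective autophagy, was at 38.4 and 81.5 TPM (log2 ratio 1.07, but 0.99 with a pseudocount of 5). CRYAB, which encodes αB-crystallin, was at 190 and 336 TPM (0.82). HSPB2 was lower at a low level, with 1.40 and 0.786 TPM (-0.42), and its interval of -1.03 to 0.35 held 0. BAG3 and HSPB8 were thus both higher with JIB-04, in contrast to most of the cytosolic set.

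In the ER, the list of 27 other folding enzymes had 1 gene higher and 1 lower, with a median of -0.04. After median scaling its median was 0.11, with 2 genes higher and 0 lower. QSOX1, a sulfhydryl oxidase, was at 129 TPM under DMSO and 271 TPM under JIB-04 (log2 ratio 1.07). P4HB, the principal disulfide isomerase and substrate of ERO1A, was at 1354 and 2455 TPM (log2 ratio 0.86). SDF2, the paralog of SDF2L1, was at 89.2 and 40.2 TPM (-1.13), and MLEC, a lectin of early glycoproteins, had a ratio of -0.61. SDF2 and SDF2L1 were thus lower together, while QSOX1 and P4HB were higher.
Of 19 other degradation genes 1 was higher and 0 lower, with a median of -0.09, which was 0.065 after median scaling. DERL1, a part of the channel through which proteins leave the ER, was at 38.9 and 115 TPM (log2 ratio 1.54), followed by UBE2G2 (0.45, but -0.025 for its most abundant transcript alone), while EDEM3 (-0.66) and DERL2 (-0.44) were lowest. Of 12 stress transducers and factors 4 were higher and 1 lower, beside 5.99% and 6.88% of all genes, with a median of 0.11. The 4 higher genes included 3 downstream of ATF4, namely PPP1R15A at 80.3 and 224 TPM (log2 ratio 1.47), TRIB3 at 35.4 and 92.2 TPM (1.36) and DDIT3 at 72.4 and 164 TPM (1.17). The fourth was CREB3L1, at a low level of 1.23 and 3.50 TPM. With a pseudocount of 5, 3 of the 12 were higher. ATF4 itself was at 557 and 900 TPM (0.69), short of 2-fold. EIF2AK3, which encodes the sensor PERK, was at 37.1 and 38.5 TPM (0.05), and its interval of -0.04 to 0.14 held 0. MBTPS2, a protease that activates ATF6, was lower at 76.2 and 34.9 TPM (-1.10, but -0.95 after median scaling), and ATF6B had a ratio of -0.71.

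In mitochondria, 2 of 14 co-chaperones and quality control proteases were higher by 2-fold and 0 lower, with a median of -0.27. LONP1, the main matrix protease, was at 119 TPM under DMSO and 268 TPM under JIB-04 (log2 ratio 1.17). GRPEL1, the nucleotide exchange factor of HSPA9, was at 45.8 and 104 TPM (1.16). The lowest were DNAJC19 (-0.80) and the protease HTRA2 (-0.75, but 0.20 for its most abundant transcript alone). LONP1, GRPEL1 and HSPA9 were thus above 0 while both chaperonin genes HSPD1 and HSPE1 were below the median of all genes.

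**Figure D5:**
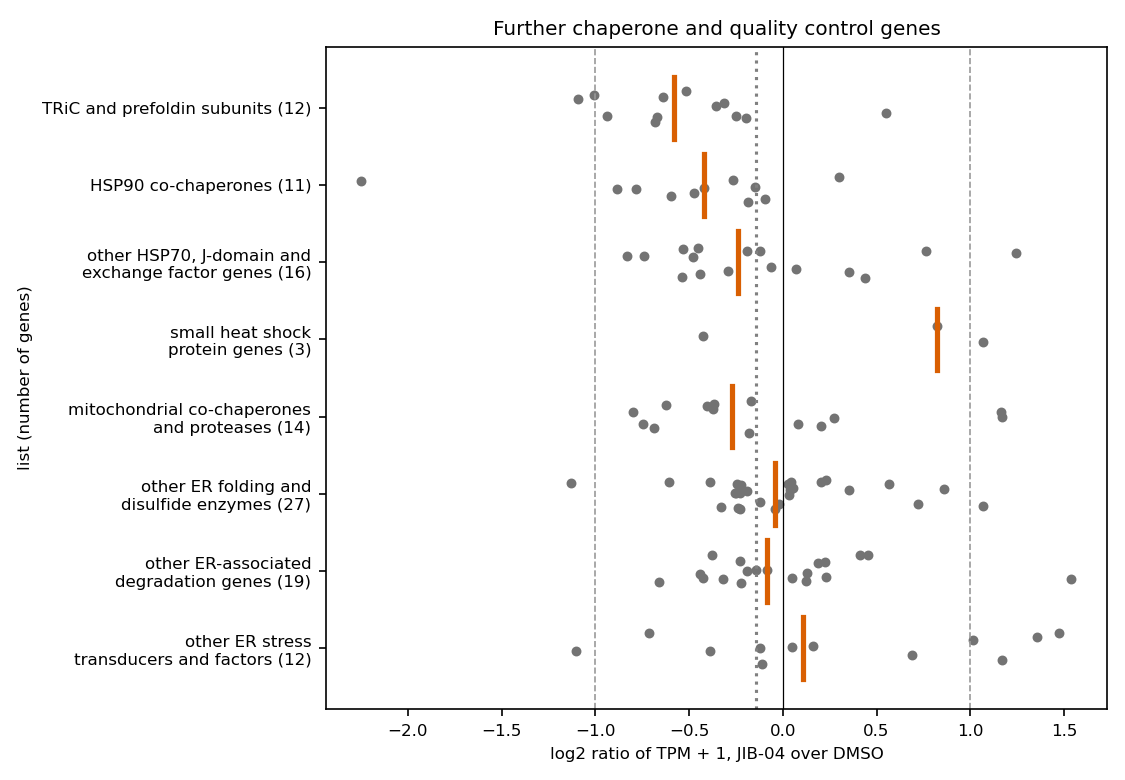
Log2 ratio of TPM + 1 with JIB-04 over DMSO (horizontal axis) for the described genes of 8 further lists (vertical axis, with the number of genes). Points are genes with vertical offsets for legibility, orange lines the list medians, the dotted line the median of all genes and dashed lines 2-fold. FKBP5 lies far left at -2.25, and DERL1, PPP1R15A and TRIB3 lie farthest right.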

How the data were processed

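Both libraries were made with a stranded mRNA kit. The notes of the submitters on processing list Bowtie2 2.2.6, FastQC 0.11.5, HISAT2 2.0.5, StringTie 1.3.3b and Trimmomatic 0.32, and the build hg19 (GRCh37). The authors deposited, for each annotated RefSeq transcript, coverage, FPKM and TPM as StringTie estimated them, with no read counts. Annotated transcripts only were estimated, so an isoform outside the annotation adds to others.

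TPM was summed by Entrez identifier in Python 3.11.15 (pandas 2.3.3, numpy 2.4.6), intervals were computed with SciPy 1.17.1 and plots drawn with matplotlib 3.10.9. Symbols came from a RefSeq table of GRCh38.p14, used for names, which named 27559 of 27685 genes. Gene coordinates are those of the files, and promoter windows those of RefSeq on GRCh38.p14, which were not mixed. Ratios used a pseudocount of 1, which understates changes of low genes, and genes of at least 1 TPM in either library. The fragments of a gene were estimated from coverage and transcript length, at 202 aligned bases per fragment (2 mates of 101). Shared windows of 101 bases were sought among GENCODE transcripts, and 28 of the 42 genes had none. The procedure was tested on simulated data, and no result of that test is given or used here.

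The members and lists were chosen with earlier results of these data known. Named genes are all 42 members, and of each list the 2 highest and 2 lowest ratios and any gene past 2-fold, at a mean of at least 5 TPM. CREB3L1, CCT6B, HSPA6 and HSPB2, below that level, were named after their values were seen. TCP1, CCT4, CCT7, CCT8, ATF4 and EIF2AK3 were named outside this rule too. Alternatives tried were FPKM, quantile normalization, scaling to the median of genes at 10 TPM or more in both libraries, a pseudocount of 0.1 or 5, a minimum of 5 TPM or none, the leading transcript alone, overlapping genes summed, and thresholds of 1.5-fold and 3-fold.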

Additional observations from a re-analysis of the deposited data

How the results depend on the processing

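Of 155 summary values under alternatives 132 stayed within their limits of change and 23 moved. Over all genes the excess of lower over higher genes turned into an excess of higher genes under median scaling (1108 and 679), quantile normalization (1006 and 758) and a pseudocount of 5 (439 and 409). Median scaling, which shifts ratios by 0.15, gave medians of -0.17 for the cytosolic, 0.32 for the ER and -0.51 for the mitochondrial genes and -0.038 for the 114 further genes, with 1 of these lower, and put DNAJA1, DNAJB1, HSPB1, HYOU1 and STIP1 above 0. Quantile normalization gave an ER median of 0.040 and 3 further genes lower, and it changed the sign of DNAJB1 and HSP90B1. No other alternative changed the sign of a member. With the most abundant transcript alone, 9 further genes were lower. At 1.5-fold 5 cytosolic, 3 ER and 3 mitochondrial genes were lower, 4 ER genes were higher, 21 further genes were lower, and over all genes 1853 were higher and 3030 lower. At 3-fold 0 cytosolic and 0 ER genes were lower, 0 further genes were higher and 1 lower, and over all genes 318 were higher and 154 lower. The thresholds and the pseudocount change these counts by construction, and the cause of the other differences was not tested. Median scaling also turned the medians of the lists of other ER folding enzymes (0.11) and other degradation genes (0.065) above 0, and CCT6A, PFDN6, SDF2 and MBTPS2 were no longer called lower while P4HB passed 2-fold (1.01). With the most abundant transcript HTRA2 and UBE2G2 changed sign. Genes with few fragments have the widest intervals. No paired analysis was possible because each condition has 1 library.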
